A study of Homo sapiens with 6 samples.

Results

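The G1 cyclins and CDK inhibitors are 10 genes that set the activity of the kinases of the G1 phase of the cell cycle: the D-type cyclins CCND1, CCND2 and CCND3, the E-type cyclins CCNE1 and CCNE2, the CIP/KIP inhibitors CDKN1A, CDKN1B and CDKN1C, and the INK4 inhibitors CDKN2B and CDKN2C. They were chosen by symbol, and all 10 were found among the 19223 gene symbols of the deposited RNA-seq table. The cells were LoVo, an established human line from a colorectal adenocarcinoma. The Control group held 3 libraries from cells kept with vehicle and without DCC-2036, and the DCC-2036 group held 3 libraries from cells given 2.5 μM of this tyrosine kinase inhibitor. The labels give 48 h for both groups, whereas a figure legend of the study gives a shorter time, and the labels and the study name different culture media. RNA was isolated with Trizol and the libraries were made with the Nextera XT kit. The labels do not say whether the 3 libraries of a group came from separate cultures, so the p-values measure only the spread between these libraries, which may be technical.

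The deposited values were read numbers adjusted to a common depth in a way that is not described, so the depth of each library is unknown. Column totals of these values were 38997229, 39956227 and 40587145 in Control and 43279603, 45957597 and 48023306 with DCC-2036. Transcripts of 1 gene share reads in these totals. Of each gene the most abundant transcript, by its mean of all 6 libraries, was read. Values given per library are in the order of libraries 1, 2 and 3 of a group, and means are given ± SD with n = 3.

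The cell type was checked against markers. Of 11 intestinal epithelial markers, 7 passed the filter on low values. KRT8 had 55603 to 64134 in Control and 92924 to 125395 with DCC-2036, EPCAM had 4524 to 5960 over the 6 libraries and CDX2 had 213.1 to 364.8. CDX1 was listed at 0 in every library, VIL1, CEACAM5 and LGALS4 did not exceed 7.23, and KRT20 did not exceed 64.1. The epithelial label therefore rests on keratins, EPCAM, CDH1 and CDX2, and several markers of differentiated intestinal epithelium were at or near 0. Of 10 markers of leukocytes, fibroblasts and endothelium, 4 passed the filter, and PTPRC, the pan-leukocyte marker, was listed at 0 in every library.

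In G1, D-type cyclins bind CDK4 and CDK6, and the resulting kinases begin the phosphorylation of the retinoblastoma protein, which otherwise holds back the E2F factors. Freed E2F factors drive transcription of genes for DNA synthesis, among them the E-type cyclins, which activate CDK2 and carry cells into S phase. INK4 inhibitors bind CDK4 and CDK6 and block their pairing with D-type cyclins, whereas CIP/KIP inhibitors bind cyclin-CDK complexes more broadly. In colorectal cancer cells CCND1 is a known target of mitogenic and Wnt signalling, and CDKN1A is a known target of p53.

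With DCC-2036, 4 of the 10 genes fell, CCND1, CCNE1, CCNE2 and CDKN2C, and 0 rose at an adjusted p-value under 0.01 (limma). Among all 12725 genes tested, 22.7% were called lower and 19.2% higher. At an unadjusted p-value under 0.05 the counts were 6 lower and 1 higher, against 36.1% and 30.5% of all genes. The 3 DCC-2036 values lay below the 3 Control values in 6 genes and above them in 1, CDKN1A, and the groups overlapped in CCND2, CDKN1C and CDKN2B. Groups without overlap made up 38.1% of all genes on the lower side and 32.9% on the higher side. The median log2 fold change was -0.38 over the 10 genes, against -0.09 over all genes. In these bulk libraries, fewer cells holding a transcript and less of it per cell cannot be told apart.

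**Figure D1:**
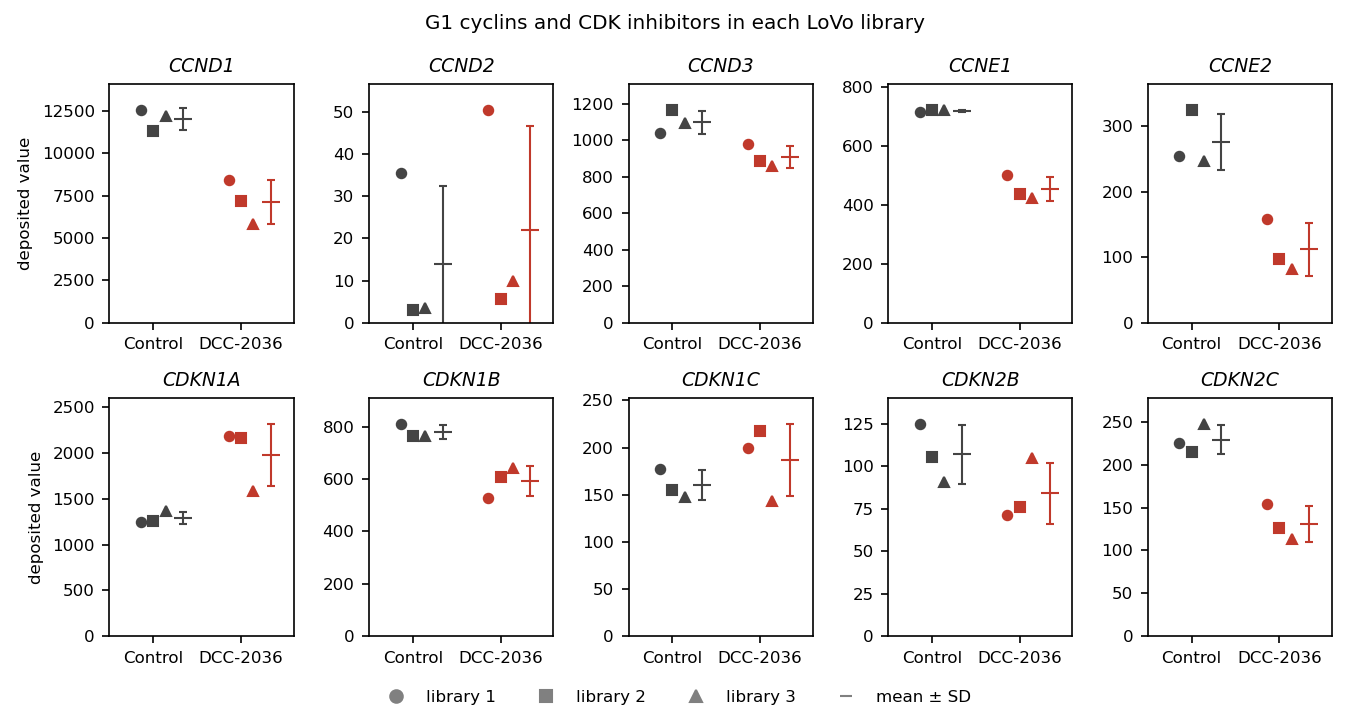
Deposited values of the 10 genes in each LoVo library (y axes start at 0 and differ between genes), with Control in grey, DCC-2036 in red, a symbol for each library number and a bar for the mean ± SD of 3 libraries. CCND1, CCND3, CCNE1, CCNE2, CDKN1B and CDKN2C lie lower with DCC-2036 without overlap, CDKN1A lies higher, and CCND2 is high in library 1 of both groups.

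Leaving out Control library 1, 2 or 3 or DCC-2036 library 2 ended all 4 calls, at adjusted p-values of 0.0124 to 0.0245 (limma), whereas leaving out DCC-2036 library 1 or 3 ended none of the 4. The log2 fold changes stayed negative with each library left out, at -0.89 to -0.63 for CCND1, -0.74 to -0.62 for CCNE1, -1.60 to -1.13 for CCNE2 and -0.94 to -0.71 for CDKN2C. Over all genes, 928 to 1054 were called higher and 1514 to 1708 lower in the cases where a left-out library ended these calls. With all libraries the counts were 2442 and 2887. Giving every column the same total, summed over the transcript read of each gene, moved the all-gene median by -0.19 on the log2 scale. Of the genes called, the share that was higher went from 45.8% to 33.6%. The 4 genes were called lower under that scaling too. CDKN1B was then called lower in addition, at a log2 fold change of -0.59 (adjusted p = 0.00312, limma). With the replicate number as a block, all 4 calls were lost, at adjusted p-values of 0.0124 to 0.015 (limma).

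Among the D-type cyclins, CCND1 was by far the most abundant. CCND1 (NM_053056.2; GRCh38 chr11:69641087-69654474, + strand) had values of 12536, 11291 and 12205 in Control and of 8388, 7154 and 5826 with DCC-2036. Each DCC-2036 library lay below each Control library, and the DCC-2036 libraries were spread more widely. The mean went from 12011 ± 645 to 7122 ± 1280, or 59.3% of Control, and the log2 fold change was -0.77 (SE 0.15, 95% interval -1.14 to -0.40, adjusted p = 0.00564, limma). The exact two-sided permutation test gave its smallest possible p of 0.1, as it did for all 7 genes whose groups did not overlap. A single transcript of CCND1 is listed. Over genes, the DCC-2036 libraries correlated with one another at 0.9686 to 0.9879 and the Control libraries at 0.9909 to 0.9924. With Control library 1, DCC-2036 libraries 1, 2 and 3 correlated at 0.9399, 0.9209 and 0.8932. The CCND1 values fell in that same order of libraries, as did those of CCNE1, CCNE2 and CDKN2C.

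CCND3 (GRCh38 chr6:41934933-42050357, - strand), which also partners CDK4 and CDK6, had values of 1038, 1166 and 1092 in Control and of 978, 890 and 860 with DCC-2036 for NM_001287427.1. The groups did not overlap, but the gap between the lowest Control library and the highest DCC-2036 library was narrow. Its log2 fold change of -0.27 (SE 0.11) was not called (adjusted p = 0.0593, limma), nor was that of -0.46 with the same total in every column. The other 5 listed transcripts of CCND3 had log2 fold changes of -0.33 to -0.28 and were not called either. Of these, NM_001136126.2 begins with an exon far upstream, at 42048894, and had Control values of 698.5, 829.9 and 811.8, below those of NM_001287427.1, which begins at 41941519. The difference between the 2 transcripts was 339.5, 336.3 and 280.6 in Control and 310.1, 266.3 and 289.6 with DCC-2036, so the groups overlapped in it.

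CCND2 (NM_001759.3; GRCh38 chr12:4273772-4305350, + strand), the D-type cyclin best known from lymphocytes and other cell types, was close to the filter on low values. It had 35.4, 3.10 and 3.42 in Control and 50.4, 5.77 and 10.0 with DCC-2036. Library 1 was the high one in both groups, and the groups overlapped. The log2 fold change of 0.85 had a 95% interval of -1.73 to 3.43 and was not called (adjusted p = 0.512, limma). It was 0.30 without Control library 2, 0.36 without Control library 3 and 1.45 without DCC-2036 library 2, and without any of the other 3 libraries the gene did not pass the filter. With the replicate number as a block it was not called either, at an adjusted p of 0.0235 (limma). Over all 19223 symbols only CCND2 and POSTN had values above 20 in both libraries numbered 1 that were more than 3 times those of each other library, a pattern looked for after the values had been seen. POSTN, a matrix protein of fibroblasts, had 27.8, 0 and 0 in Control and 41.0, 0.22 and 0.44 with DCC-2036.

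The fibroblast marker COL3A1 had 27.6, 6.70 and 8.11 in Control and 51.5, 11.1 and 8.93 with DCC-2036. DCN, another fibroblast marker, had 8.60, 3.48 and 0 in Control and 13.4, 1.22 and 4.82 with DCC-2036. Both were thus highest in library 1 of each group, as CCND2 was, but the other 2 fibroblast markers were not. COL1A1 had 379.9, 393.5 and 353.3 in Control and 429.4, 420.1 and 520.1 with DCC-2036, and COL1A2 had 12.4, 2.44 and 4.53 in Control and 4.18, 3.34 and 11.3 with DCC-2036. The 10 markers of other cell types summed to 666.3, 674.8 and 633.9 in Control and to 745.1, 689.3 and 849.7 with DCC-2036, and COL1A1 was the most abundant of them. Of the 4 that passed the filter, 0 were called in either direction, against 19.2% of all genes called higher and 22.7% lower. Their median log2 fold change was 0.42, against -0.09 over all genes. Of these 4, 2 lay higher without overlap, as did 32.9% of all genes. The endothelial marker VWF had 10.4, 4.15 and 13.0 in Control and 33.0, 15.3 and 15.6 with DCC-2036 (log2 fold change 1.16, adjusted p = 0.0611, limma). PECAM1, also endothelial, had 1.92, 0 and 0 in Control and 5.15, 0.05 and 3.49 with DCC-2036, highest in library 1 of each group. The part of these markers in the CCND2 values was not tested. The nearest profiles to CCND2 over the 6 libraries, among 10207 genes with a mean of at least 100, were those of VIM, GRIN2B and PLEKHG1, at root mean square differences of 0.97, 1.18 and 1.18 on the log2 scale, which are wide.

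Of the E-type cyclins, CCNE1 is shown with its promoter because it was one of the genes that fell and because it is a textbook E2F target. RefSeq promoters (250 bases before to 50 after a gene start, GRCh38.p14) were found for 6 of the 10 genes, CCND3, CCNE1, CDKN1A, CDKN1B, CDKN2B and CDKN2C, with 10 windows in all. They were searched on both strands for the GC box GGGCGG and for the E2F motif as TTTCCCGC, TTTCGCGC, TTTGCCGC or TTTGGCGC. Of 35116 promoter windows of the same length, 45.0% held the GC box and 3.31% one of the E2F strings. The GC box was present in 8 of the 10 windows and the E2F strings in 0, which says only that these letters are not in these windows. The CCNE1 promoter, chr19:29811741-29812040 on the + strand, follows with its 7 GC boxes of either strand in capitals.
CCNE1 promoter: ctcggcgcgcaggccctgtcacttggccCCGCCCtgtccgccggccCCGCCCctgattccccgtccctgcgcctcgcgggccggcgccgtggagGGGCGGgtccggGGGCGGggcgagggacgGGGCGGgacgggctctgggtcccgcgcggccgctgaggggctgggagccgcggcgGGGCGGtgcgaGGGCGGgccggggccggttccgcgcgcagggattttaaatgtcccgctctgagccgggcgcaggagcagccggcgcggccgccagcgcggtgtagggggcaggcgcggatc

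CCNE1 (NM_001238.3; GRCh38 chr19:29811898-29824308, + strand), an activator of CDK2, had values of 712.7, 720.0 and 720.6 in Control and of 499.8, 436.2 and 422.4 with DCC-2036. The Control libraries were nearly level, and each DCC-2036 library lay well below them. The mean went from 717.8 ± 4.41 to 452.8 ± 41.2, or 63.1% of Control, and the log2 fold change was -0.67 (SE 0.11, 95% interval -0.92 to -0.41, adjusted p = 0.00244, limma). The other 3 listed transcripts of CCNE1 had log2 fold changes of -0.67 to -0.62 and were called lower as well. One of them, NM_001322262.1, begins with another first exon, at 29812654, and had a Control mean of 694.3 and a DCC-2036 mean of 436.0.

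CCNE2 (NM_057749.2), the second activator of CDK2, had values of 253.8, 324.5 and 247.4 in Control and of 158.4, 97.6 and 81.7 with DCC-2036. All DCC-2036 libraries lay below all Control libraries, with library 1 the highest of its group. The log2 fold change of -1.33 (SE 0.26, 95% interval -1.95 to -0.71, adjusted p = 0.00522, limma) was the lowest of the 10 genes. Without a filter on low values, the calls of CCNE2 and CCND1 were lost, at adjusted p-values of 0.0124 and 0.0133 (limma). The nearest profiles among 10206 genes with a mean of at least 100 were those of DGCR14, NSMCE2 and GPATCH1, at root mean square differences of 0.10, 0.12 and 0.12 on the log2 scale.

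Of the 10 genes, CCNE2 shared the largest part of its exons with another gene. In GENCODE 29, 1519 of the 2724 exon bases of its transcript, 55.8%, also lie in exons of INTS8, a subunit of the Integrator complex transcribed from the opposite strand. INTS8 had values of 2204, 2147 and 2019 in Control and of 831.3, 552.1 and 375.4 with DCC-2036, a log2 fold change of -1.93 (SE 0.28, adjusted p = 0.00174, limma). Whether strand was used in counting is not given in the sources used here, and without it reads of CCNE2 and INTS8 in the shared bases cannot be told apart. For the other 9 genes, 0 exon bases of the transcript read here were shared with a listed transcript of another gene, as far as these were matched in GENCODE 29. Among transcripts not matched to the table, LTO1 shared 497 of 4307 exon bases with CCND1 and CCND2-AS1 shared 126 of 6480 with CCND2, both on the opposite strand, and AC008012.1 shared 989 with CCND2 on the same strand. Within libraries, CCNE2 minus CCNE1 on the log2 scale was -1.49, -1.15 and -1.54 in Control and -1.65, -2.15 and -2.36 with DCC-2036, so each DCC-2036 library lay below each Control library. This pair, like the other pairs compared within libraries, was chosen after the values had been seen, and the difference is given without a test.

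The CIP/KIP inhibitor CDKN1A, which encodes p21, was the only one of the 10 genes with all DCC-2036 values above all Control values. Its promoter is shown because the listed transcripts differ in where they start, and the window lies at the start of the transcript with the highest values. It spans chr6:36678464-36678763 on the + strand (RefSeq, GRCh38.p14) and holds 4 GC boxes, in capitals, of which the last 2 overlap.
CDKN1A promoter: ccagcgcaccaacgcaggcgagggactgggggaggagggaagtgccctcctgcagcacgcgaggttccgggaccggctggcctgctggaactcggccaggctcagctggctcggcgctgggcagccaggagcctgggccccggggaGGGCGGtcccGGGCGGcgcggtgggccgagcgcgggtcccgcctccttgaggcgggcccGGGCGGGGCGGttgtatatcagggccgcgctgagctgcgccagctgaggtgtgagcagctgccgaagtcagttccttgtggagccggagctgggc

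CDKN1A (GRCh38 chr6:36676460-36687339, + strand) had values of 1248, 1257 and 1360 in Control and of 2180, 2163 and 1579 with DCC-2036 for NM_001220778.1. Each DCC-2036 library lay above each Control library, with library 3 the lowest of its group. The mean went from 1288 ± 62.0 to 1974 ± 342, a ratio of 1.53, and the log2 fold change of 0.60 (SE 0.15, 95% interval 0.23 to 0.97) was not called (adjusted p = 0.0142, limma). Without DCC-2036 library 3 the log2 fold change was 0.75 and the gene was called, at an adjusted p of 0.0012 (limma), in a range of 0.0012 to 0.0867 over its 18 alternatives. With the same total in every column it was 0.41 and was not called (adjusted p = 0.0867, limma).

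The 5 listed transcripts of CDKN1A share their later exons and differ in the first. The 3 that begin upstream, at 36676460 or 36676490, had the same values in every library, 1050, 1063 and 1191 in Control and 1862, 1831 and 1240 with DCC-2036, although their first exons are not all the same, and a log2 fold change of 0.56 that was not called (adjusted p = 0.0334, limma, over all transcripts). The other 2 begin within the window printed above and overlap in their first exons. NM_000389.4, which begins at 36678658, had 1233, 1245 and 1348 in Control and 2157, 2124 and 1502 with DCC-2036, and its log2 fold change of 0.58 was not called (adjusted p = 0.0207, limma, over all transcripts). It exceeded the upstream transcripts by 182.4, 181.8 and 157.3 in Control and by 294.5, 293.3 and 261.4 with DCC-2036. NM_001220778.1, which begins at 36678710, exceeded them by 197.5, 194.1 and 168.4 in Control and by 317.3, 332.3 and 338.7 with DCC-2036. Both were thus higher in each DCC-2036 library than in each Control library, at 283.1 ± 18.8 against 173.8 ± 14.3 and at 329.5 ± 11.0 against 186.6 ± 15.9. Since transcripts of 1 gene share reads, the excess cannot be divided between the 2 downstream starts. As a share of the value of NM_001220778.1 it was 15.8%, 15.4% and 12.4% in Control and 14.6%, 15.4% and 21.4% with DCC-2036, so the groups overlapped in the share, with DCC-2036 library 3 the highest. No test was made of it.

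CDKN1B (NM_004064.4; GRCh38 chr12:12715058-12722371, + strand), which encodes p27, had values of 811.5, 762.9 and 762.9 in Control and of 527.9, 607.1 and 641.1 with DCC-2036. All DCC-2036 libraries lay below all Control libraries. The log2 fold change of -0.40 (SE 0.11, 95% interval -0.67 to -0.13) was not called (adjusted p = 0.0205, limma). CDKN1A minus CDKN1B within a library was 0.62, 0.72 and 0.83 on the log2 scale in Control and 2.04, 1.83 and 1.30 with DCC-2036, without overlap and without a test. CDKN1C (NM_000076.2; GRCh38 chr11:2883213-2885773, - strand), which encodes p57 and is an imprinted gene, had 143.8 to 217.3 over the 6 libraries with overlapping groups and a log2 fold change of 0.20 (adjusted p = 0.348, limma). This became 0.08 without DCC-2036 library 2, 0.38 without DCC-2036 library 3 (adjusted p = 0.0299, limma) and 0.01 with the same total in every column. Its other 2 transcripts had log2 fold changes of 0.19 and 0.29 and were not called.

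Among the INK4 inhibitors, CDKN2C, which encodes p18, fell. Its promoter is shown because 3 windows are given for the gene and the most abundant transcript begins in this one, chr1:50968456-50968755 on the + strand (RefSeq, GRCh38.p14). It holds 6 GC boxes, in capitals, of which the first 2 overlap. The windows at chr1:50960495-50960794 and chr1:50969995-50970294 hold 0 and 1.
CDKN2C promoter: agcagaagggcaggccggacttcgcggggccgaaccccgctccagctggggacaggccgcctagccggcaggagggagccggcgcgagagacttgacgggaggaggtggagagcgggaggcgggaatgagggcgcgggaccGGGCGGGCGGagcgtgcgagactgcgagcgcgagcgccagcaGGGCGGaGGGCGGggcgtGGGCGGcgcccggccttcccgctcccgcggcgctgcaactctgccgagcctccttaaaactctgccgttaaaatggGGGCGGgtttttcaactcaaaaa

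CDKN2C (GRCh38 chr1:50960745-50974633, + strand) had values of 225.6, 214.1 and 247.7 in Control and of 154.4, 125.6 and 113.0 with DCC-2036 for NM_001262.2. Each DCC-2036 library lay below each Control library. The mean went from 229.1 ± 17.1 to 131.0 ± 21.2, or 57.2% of Control, and the log2 fold change was -0.81 (SE 0.14, 95% interval -1.16 to -0.47, adjusted p = 0.00368, limma). The second transcript, NM_078626.2, begins downstream at 50969944 and lacks the long first exon that begins at 50968695. It had values of 71.4, 70.1 and 85.7 in Control and of 69.3, 42.4 and 47.2 with DCC-2036, and its log2 fold change of -0.53 was not called (adjusted p = 0.0551, limma, over all transcripts). The difference between the 2 transcripts was 154.2, 144.0 and 162.0 in Control and 85.1, 83.2 and 65.8 with DCC-2036. It was lower in each DCC-2036 library, at 78.0 ± 10.6 against 153.4 ± 9.02. As a share of the value of NM_001262.2 it was 68.4%, 67.3% and 65.4% in Control and 55.1%, 66.2% and 58.3% with DCC-2036, so the groups overlapped in the share through DCC-2036 library 2.

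CDKN2B (GRCh38 chr9:22002903-22009363, - strand), which encodes p15 and is a known target of TGF-beta signalling, had 125.2, 105.3 and 90.9 in Control and 71.6, 75.9 and 104.9 with DCC-2036 for NM_078487.2. Library 3 of DCC-2036 lay within the Control range, so the groups overlapped. The log2 fold change of -0.35 had a 95% interval of -0.81 to 0.10 and was not called (adjusted p = 0.148, limma), nor was that of -0.54 with the same total in every column. The other transcript had a log2 fold change of -0.37 and was not called. Counting every transcript of the 10 genes, 7 of 26 were called lower and 0 higher in a fit over 32323 transcripts, of which 22.4% were lower and 19.7% higher. Those 7 belong to the same 4 genes.

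Levels can be set beside each other only per length, and were taken as value per kb of the matched GENCODE 29 transcript. CDKN2B is not ranked, since its level depends on which of its transcripts gives the length. In Control it was 124.7 ± 20.1 per kb at the 859 bases of NM_078487.2, whose values overlap those of CDKN2C and CCNE2, and 27.4 ± 4.41 at the 3911 bases of the other transcript. In Control, the order of the rest was CCND1 at 2789 ± 150 per kb, CDKN1A at 568.2 ± 27.3, CCND3 at 492.1 ± 28.8, CCNE1 at 351.3 ± 2.16, CDKN1B at 293.2 ± 10.5, CDKN2C at 109.8 ± 8.19, CCNE2 at 101.0 ± 15.7, CDKN1C at 83.1 ± 8.04 and CCND2 at 2.15 ± 2.86. Neighbours in this order did not overlap between libraries, except that CCNE2 overlapped both CDKN2C above it and CDKN1C below it. As the use of strand is not known, the level of CCNE2 may hold reads of INTS8. Its place is therefore uncertain in both groups. With DCC-2036, CCND1 at 1654 ± 298 per kb, CDKN1A at 870.8 ± 151 and CCND3 at 407.1 ± 27.5 were again the highest. CDKN1B at 222.8 ± 21.9 and CCNE1 at 221.6 ± 20.2 then overlapped, as did CDKN2C at 62.8 ± 10.2 and CCNE2 at 41.3 ± 14.9, and CDKN1C at 96.9 ± 19.9 lay above both of the latter.

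Within families, per length, CCND1 made up 84.9% ± 1.4 of the summed D-type cyclins in Control and 79.9% ± 1.9 with DCC-2036 (SD, n = 3). CDKN1A made up 60.1% ± 2.1 of the CIP/KIP inhibitors in Control and 72.9% ± 3.7 with DCC-2036, and CDKN1B 31.1% ± 1.2 and 19.1% ± 4.2. The groups did not overlap in these shares, which were not put to a test, and groups without overlap were common among all genes. CCND1 minus CCND3 on the log2 scale was 3.27 to 3.59 in Control and 2.76 to 3.10 with DCC-2036.

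**Figure D2:**
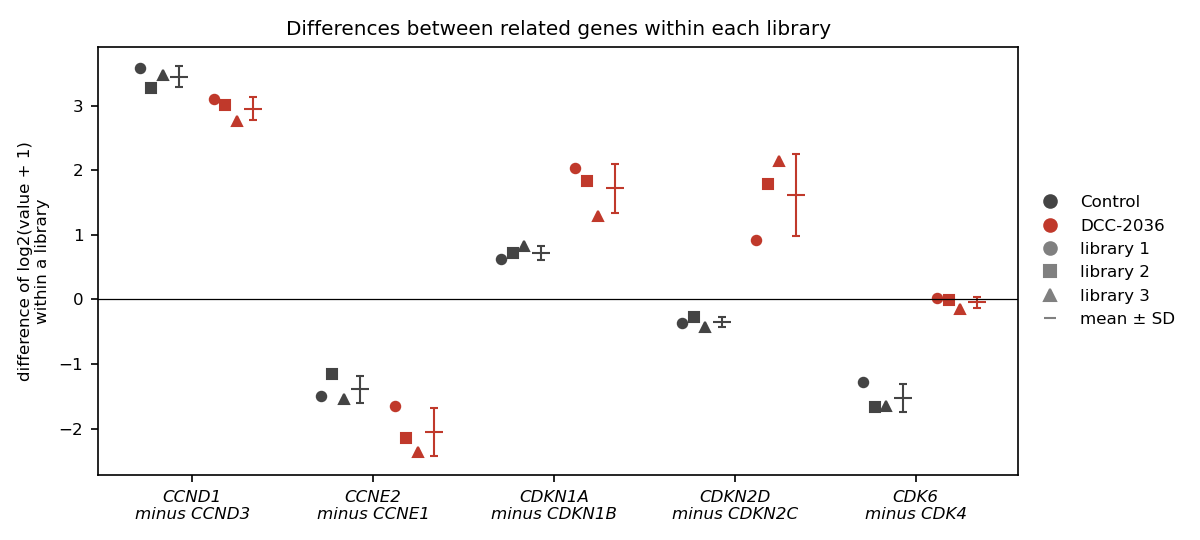
Difference of log2(value + 1) between 5 pairs of related genes within each Control (grey) and DCC-2036 (red) library, with the mean ± SD of 3 libraries; 0 means equal values, which are not levels per length. In each pair the groups do not overlap, with the widest gap between group means in CDKN2D minus CDKN2C, at -0.35 in Control and 1.62 with DCC-2036.

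The other genes of the pathway were taken as lists and are described by counts beside the 22.7% of genes called lower and 19.2% called higher, and by their median beside -0.09. As for the 4 cyclins and inhibitors that fell, some calls named below were lost when 1 Control library or DCC-2036 library 2 was left out: those of CDKN2D, CDK6, RB1, SKP2, BAX and FDXR in each of these 4 cases, those of MYBL2 and DDB2 in 3, and that of SKP1 without Control library 1 or 3. The highest adjusted p-values among these were 0.0253 for CDK6 and 0.0203 for FDXR (limma). Without a filter on low values, the calls of CDK6, FDXR and BAX were lost, at adjusted p-values of 0.0117, 0.0121 and 0.0102 (limma). With the replicate number as a block, those of CDK6, FDXR, MYBL2, DDB2 and SKP2 were lost, at 0.0206, 0.0186, 0.0147, 0.0128 and 0.0121 (limma). A further 2 genes, CDKN2D and CDKN2A, were listed with the INK4 inhibitors. CDKN2D, which encodes p19, rose from 175.8, 177.3 and 184.1 in Control to 292.7, 436.0 and 504.6 with DCC-2036. Its log2 fold change was 1.16 (SE 0.20, adjusted p = 0.00364, limma). CDKN2A had 686.4 to 843.6 in Control and 769.6 to 1009 with DCC-2036 and was not called (adjusted p = 0.22, limma). These CDKN2A values are of 1 transcript, NM_058195.3, and are not taken as a reading of p16 or of any INK4 inhibitor. Genes of 1 inhibitor family thus lay on both sides: within libraries CDKN2D minus CDKN2C was -0.43 to -0.27 in Control and 0.92 to 2.15 with DCC-2036.

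Of 9 genes for G1 kinases and the RB family, 4 were called lower and 2 higher, with a median of -0.03, and 2 were lower and 1 higher without a Control library or without DCC-2036 library 2. The kinase genes split. CDK4 had 3147, 3410 and 3645 in Control and 1702, 1857 and 1887 with DCC-2036 (log2 fold change -0.90, adjusted p = 0.000923, limma), whereas CDK6 had 1297, 1078 and 1159 in Control and 1726, 1850 and 1701 with DCC-2036 (0.58, adjusted p = 0.00482, limma). CDK6 was thus called higher, but its call was lost with the same total in every column, where its log2 fold change was 0.39 (adjusted p = 0.0306, limma). CDK6 minus CDK4 on the log2 scale was -1.66 to -1.28 in Control and -0.15 to 0.02 with DCC-2036. CDK2, the partner of the E-type cyclins, fell from 1849, 1861 and 1945 to 750.8, 743.5 and 668.7 (log2 fold change -1.39, adjusted p = 0.000257, limma), and CDK7, of the CDK-activating kinase, rose by a log2 fold change of 0.83 (adjusted p = 0.0011, limma).

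RB1, the retinoblastoma gene itself, fell from 1076, 1115 and 1093 in Control to 454.8, 292.3 and 171.5 with DCC-2036. The Control libraries were level, and the DCC-2036 libraries were low but far apart. The log2 fold change was -1.94 (SE 0.33, 95% interval -2.74 to -1.15, adjusted p = 0.00318, limma).

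Of the 10 E2F and DP factors, 7 were called lower and 0 higher, with a median log2 fold change of -0.98. E2F8 had 490.9, 478.5 and 452.7 in Control and 94.1, 56.5 and 49.9 with DCC-2036, a log2 fold change of -2.86 (SE 0.24, adjusted p = 0.000338, limma). E2F1, an activating factor, fell as well (log2 fold change -1.47, SE 0.21, adjusted p = 0.00161, limma), as did E2F7, E2F5 and E2F3, with log2 fold changes of -1.44, -1.13 and -0.84. Activating and repressive members were thus among those called lower. With single libraries left out, 5 to 7 of the list were called lower, and the 5 genes named here kept their calls.

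Of 16 E2F target genes of S phase entry, 9 were called lower and 0 higher, with a median of -0.58. RRM2, a subunit of ribonucleotide reductase, fell from 10558, 11670 and 11843 to 3301, 3242 and 2681 (log2 fold change -1.89, SE 0.12, adjusted p = 0.000216, limma). CCNA2, the S phase cyclin, CDC6 and CDT1, of replication licensing, and the transcription factor gene MYBL2 fell with log2 fold changes of -1.18, -1.53, -1.21 and -0.96. The list was not uniform, and 7 of its genes were not called in either direction. Its count of lower genes was 4 or 5 without a Control library or without DCC-2036 library 2, and 11 and 9 without DCC-2036 library 1 and 3. Of 6 mitotic cyclins and proliferation markers, 4 were called lower and 0 higher, with a median of -1.27. CCNB1 fell from 6323, 6768 and 6830 to 2114, 1964 and 1862 (log2 fold change -1.75, SE 0.10, adjusted p = 0.000193, limma), and CCNF, TOP2A and MKI67 had log2 fold changes of -2.11, -1.48 and -1.06. The count of 4 held with each library left out. CCNB2 had 1833 to 2029 in Control and 2263 to 2621 with DCC-2036 and was not called (adjusted p = 0.0275, limma).

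**Figure D3:**
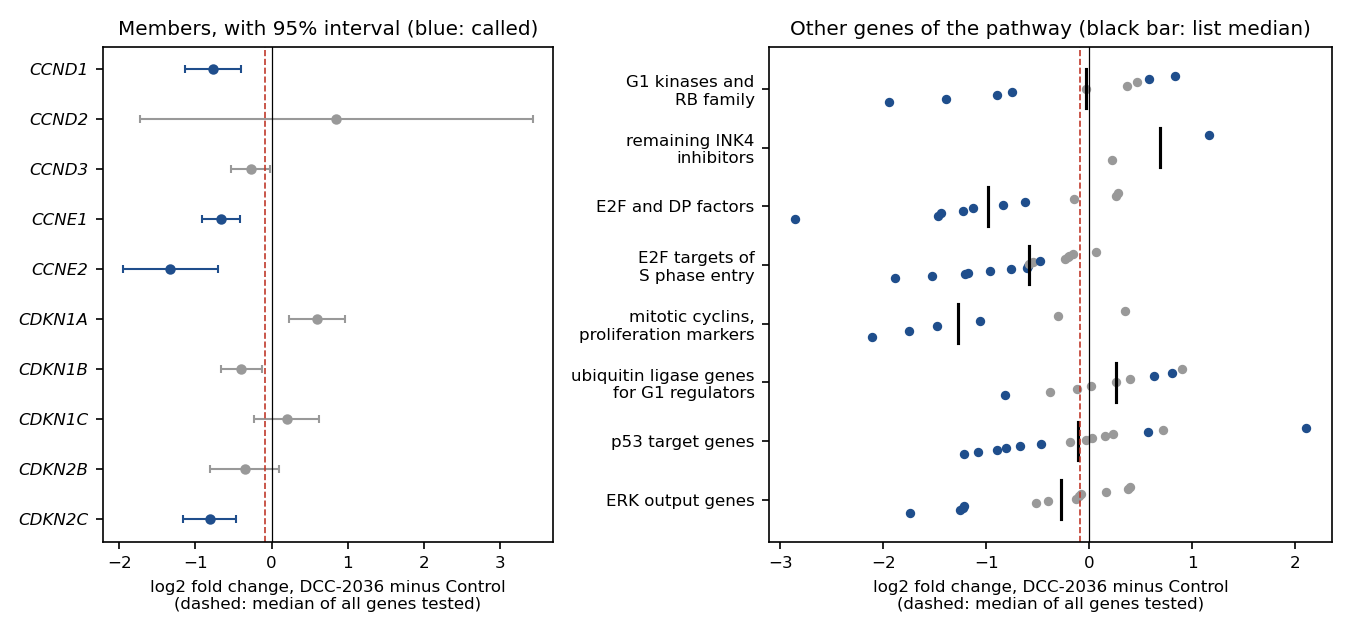
Log2 fold changes of DCC-2036 minus Control for the 10 genes with 95% intervals (left) and for the tested genes of 8 lists of the pathway (right), with called genes (limit 0.01 on the adjusted p-value) in blue, others in grey, list medians as black bars and the all-gene median, -0.09, as a dashed line. The medians of the E2F factors (-0.98) and the mitotic cyclins and proliferation markers (-1.27) lie far to the left.

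Ubiquitin ligase genes act on the proteins of these cyclins and inhibitors, which were not measured here. Of 9 such genes, 2 were called higher and 1 lower, with a median of 0.26. The higher calls numbered 0 or 1 without a Control library or without DCC-2036 library 2 and 3 without DCC-2036 library 1 or 3. SKP2, whose ligase marks p27 for degradation, rose from 1034, 1151 and 1052 to 1538, 1737 and 1751 (log2 fold change 0.63, SE 0.11, adjusted p = 0.00306, limma), and its partner SKP1 rose by a log2 fold change of 0.80 (adjusted p = 0.00187, limma). FBXW7, whose ligase acts on cyclin E, had 310.3, 323.3 and 271.3 in Control and 417.1, 546.6 and 778.5 with DCC-2036 and was not called (adjusted p = 0.0149, limma). RNF123, of a ligase for p27 in the cytoplasm, fell (log2 fold change -0.82, adjusted p = 0.00139, limma).

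CDKN1A is a p53 target, and of 14 other p53 target genes 6 were called lower and 2 higher, with a median of -0.11, close to that of all genes. ZMAT3 rose from 375.2, 354.7 and 321.1 to 1169, 1524 and 1934 (log2 fold change 2.11, SE 0.19, adjusted p = 0.00045, limma) and FDXR rose by a log2 fold change of 0.57 (adjusted p = 0.00502, limma). BTG2, BAX and DDB2 fell, with log2 fold changes of -1.22, -1.08 and -0.81, so genes of this list did not move one way. The 6 lower calls became 1 or 2 without a Control library or without DCC-2036 library 2, and 4 without DCC-2036 library 1. FDXR also lost its call with the same total in every column (adjusted p = 0.0198, limma).

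CCND1 responds to ERK signalling, and of 12 ERK output genes 4 were called lower and 0 higher, with a median of -0.27. EGR1 fell from 1208, 1157 and 1155 to 241.9, 388.4 and 461.0 (log2 fold change -1.74, SE 0.24, adjusted p = 0.00146, limma), and DUSP6, ETV4 and FOSL1 had log2 fold changes of -1.25, -1.23 and -1.22. The other 8 were not called, and the 4 calls held with each library left out. Without overlap, 6 of the 12 lay lower and 2 higher, against 38.1% and 32.9% of all genes. With median-of-ratios scaling 4 were called lower and 1 higher, and with the same total in every column 6 lower and 0 higher.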

How the data were processed

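RNA of 3 Control and 3 DCC-2036 libraries was read from 1 deposited table of 45006 RefSeq transcripts. Its 6 columns hold a signal, which in the deposited form is already adjusted for depth. The aligner, counting, genome build and use of strand are not given in the sources used here, and reads could not be recovered, so the depth of a library is unknown. Columns with the comparison made by the authors (log2 fold change, p-value, q-value) were left out.

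The test was that of limma 3.58.1 (R 4.3.3) on log2(value + 1), two-sided and without covariates, on 1 transcript per symbol, for the 12725 genes with at least 10 in at least 3 libraries. P-values were adjusted by the Benjamini-Hochberg method over all genes tested and calls made under 0.01. Fold changes on this scale understate changes of low values. Tables were handled in Python 3.11.15 (pandas 2.3.3, numpy 2.4.6), exact permutation tests run with scipy 1.17.1 and plots drawn with matplotlib 3.10.9. The code was tested on simulated data. Positions and lengths came from GENCODE 29 (GRCh38) through RefSeq accessions. The 2 transcripts of CDKN2B measure 859 and 3911 bases, and its level per length depends on the choice.

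Named genes were the 10 cyclins and inhibitors, up to 5 genes of each list of the pathway with the lowest adjusted p-values, and the 3 nearest profiles (root mean square difference of log2 values from the Control mean, among genes with a mean of at least 100) for the genes with the highest and lowest log2 fold change. POSTN, INTS8 and the cell type markers were named after values were seen. Members and lists were chosen with earlier results of these data known. Alternatives were 3 scalings, 2 other filters, a pseudocount of 0.1, limma with a trend, a replicate block, limits of 0.05 and of 1 on the absolute log2 fold change, each transcript as an entry of its own, the sum of transcripts and each library left out.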

Additional observations from a re-analysis of the deposited data

How the results depend on the processing

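Over 175 values of the 10 genes under the alternatives, 144 kept their direction and their side of the limit, 25 lost a call, 6 gained one and 0 changed sign. The 4 calls held under all 3 scalings, the pseudocount of 0.1, the stricter filter, the trend and both ways of treating transcripts. Genes called higher and lower numbered 2442 and 2887, and went to 928 to 2675 and 1514 to 3507 with single libraries left out, where the counts of the 10 genes ranged from 0 to 1 higher and from 0 to 4 lower. Each fit with a library left out has fewer degrees of freedom. The counts over all genes nevertheless rose without DCC-2036 library 1, to 2675 higher and 3507 lower. They also rose without DCC-2036 library 3, to 2487 and 3253. The cause of this range was not tested. With each transcript as an entry, 6379 of 32323 were higher and 7250 lower. With a limit of 1 on the size of the log2 fold change added, 944 genes were higher and 1930 lower, and 1 of the 10 genes, CCNE2, was lower. Without a filter, 2 of the 10 were lower, and the cause was not tested. CDKN1A was the 1 gene called higher with limma's trend, with median-of-ratios scaling and at an adjusted p-value under 0.05, where 5 were lower.

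Deviations of same-numbered libraries correlated at 0.081, -0.035 and -0.0033 over genes, and not every library correlated best with its own number. A correlation over genes cannot show whether a few genes vary with the replicate number. CCND2 and POSTN were highest in library 1 of both groups. With the replicate block, 1202 genes were called higher and 1909 lower, and 0 of the 10, with adjusted p-values of 0.0124 to 0.015 (limma) for the 4 genes. Depth per library is unknown, so how far it limits low values such as CCND2 cannot be given.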

Other observations

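The 3 DCC-2036 columns each hold 5697 transcripts at exactly 0, whereas the Control columns hold 7844, 7940 and 8078. The DCC-2036 columns also hold 2061, 2354 and 2277 transcripts above 0 and below 0.5, of which the Control columns hold 0. Values near 0 thus had another form in each group. Of the 10 genes, CCND2 alone had values below 10.

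Of the 7 intestinal epithelial markers tested, 2 were called higher with DCC-2036, CDH1 and KRT8, and 1 lower, KRT20. Over all genes tested, 19.2% were called higher and 22.7% lower. CDH1 had 1635, 1569 and 1610 in Control and 3305, 3458 and 3571 with DCC-2036 (log2 fold change 1.10, SE 0.092, adjusted p = 0.000354, limma), and kept its call with each library left out. KRT8 (log2 fold change 0.84, adjusted p = 0.00287, limma) lost its call without a Control library or without DCC-2036 library 2, at adjusted p-values of up to 0.0146. KRT20 had 64.1, 43.6 and 51.5 in Control and 17.7, 28.0 and 24.6 with DCC-2036 (log2 fold change -1.15, adjusted p = 0.00427, limma). It lost its call without Control library 1 or 3, at adjusted p-values of up to 0.0176. The call was also lost without a filter on low values and with the replicate block, at adjusted p-values of 0.0105 and 0.0214 (limma).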
